A study of Mus musculus with 8 samples.

Results

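The genes described here are cytokine receptors together with the JAK kinases, STAT factors and SOCS inhibitors through which many of them signal. They were chosen by name as a list of 40 mouse genes, and 37 of them were matched to a probe set annotated with exactly 1 gene symbol, out of 22180 genes matched in the same way. Il1rl1 and Il11ra1 were not matched and Jak3 shared its probe set with another gene, so these 3 were not analysed here. Of the 37, 34 were bright enough to be tested, which here means a mean log2 signal over all arrays of at least 3.88, the 25th percentile of probe sets. Il2ra, Lifr and Lepr lay below that level and are given as values with no test.

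RNA was measured on 8 single-colour arrays, each of one sorted population from marrow of C57/Bl6 mice given as 8 weeks old. Of these arrays 3 held multipotent progenitors (MPP), gated as CD48+CD150-CD34+. Short-term stem cells (ST-HSC, gated as CD48-CD150+CD34+) had 3, and long-term stem cells (LT-HSC, gated as CD48-CD150+CD34-) had 2, numbered 1 and 3. Cells of all 3 populations were negative for lineage markers and positive for Sca1 and Kit. No genetic change is named, and the labels disagree on treatment: each description says there was none, while a protocol shared by all arrays tells of 2 hours in DMSO followed by serial transplantation, 1 year in primary and 3 months in secondary recipients. It is not stated whether arrays came from separate or pooled animals, so the p-values measure only how far these arrays spread, and that spread may be technical.

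Most cytokine receptors of blood cells have no kinase domain of their own. Ligand binding brings receptor chains together, the JAK kinases bound to their tails phosphorylate the chains and then the STAT factors, and phosphorylated STAT dimers enter the nucleus and bind DNA. CISH and the SOCS proteins, encoded by STAT target genes, bind the activated receptors or kinases and shut the signal off. Receptors of the IL-1 and IL-17 families are built differently and signal through adaptor proteins to NF-kappaB rather than through JAKs. In bone marrow these pathways control survival and division of stem cells and the choice between blood lineages, for example granulocyte output under G-CSF and emergency myelopoiesis under IL-1.

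Values are log2 RMA signals, and a difference is one of log2 means. A gene was called at a limma adjusted p under 0.05, adjusted over all 17576 genes tested. In bulk RNA a lower share of expressing cells cannot be told apart from less RNA per cell. The arrays were unequal in range and in markers of other cells. The replicate 1 arrays of LT-HSC and ST-HSC had the narrowest interquartile ranges, 2.49 and 2.73, against 2.82 to 3.06 on the other arrays. The list of 12 granulocyte and monocyte markers, all above the dim limit, averaged 6.99 to 8.13 in MPP, 6.72 to 8.71 in ST-HSC and 6.33 to 8.31 in LT-HSC, with replicate 1 the highest array each time. Genes of the MPP gate and lineage, Cd34, Cd48 and Flt3, averaged 8.98 to 9.55 in MPP, 7.83 to 8.08 in ST-HSC and 6.75 and 8.44 in LT-HSC replicates 1 and 3. Flt3, the receptor that marks lymphoid-primed progenitors, was 9.80, 9.43 and 9.45 in MPP, 7.19, 7.17 and 6.86 in ST-HSC, and 5.84 and 8.49 in LT-HSC. Cd34 was 8.50 and 10.20 in LT-HSC, gated as CD34-, and 9.55, 10.15 and 10.07 in ST-HSC, gated as CD34+. For Cd34, LT-HSC replicate 3 lay above every ST-HSC array, against the order of the gates, and replicate 1 below them all. Cd48 was 7.84, 6.65 and 6.96 in MPP, and in the CD48- gates 7.49, 6.51 and 6.57 (ST-HSC) and 5.92 and 6.63 (LT-HSC). ST-HSC replicate 1 thus lay above MPP replicates 2 and 3 for Cd48. The cause was not tested. LT-HSC replicate 3 was therefore nearer to MPP in Cd34, Cd48 and Flt3 than LT-HSC replicate 1. Slamf1, which encodes CD150, was 7.77 and 7.78 on the 2 arrays. It is 1 of 7 matched stem cell markers, with Procr, Mecom, Hlf, Fgd5, Hoxb5 and Meis1. Those 7 averaged 8.08 and 8.35 on LT-HSC replicates 1 and 3, 7.35 to 7.90 in ST-HSC and 7.55 to 7.62 in MPP. LT-HSC replicate 3 was thus the highest array for that list. The 5 matched megakaryocyte markers averaged 7.64 to 8.37 in ST-HSC, 6.45 to 6.98 in MPP and 7.12 and 7.47 in LT-HSC. Every ST-HSC array lay above all others for those markers, though the mean of Vwf was highest in LT-HSC, at 7.21. The part of such cells or such RNA in the member values was not tested.

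No member was called by the reported fit in any comparison or in the F test over the 3 populations. That fit had no block for the replicate number. By limma, 0 of 34 members had an adjusted p under 0.05 for MPP minus LT-HSC, where 0.125% of all genes were called, and 0 of 34 for ST-HSC minus LT-HSC, where 0.933% were. The same held for MPP minus ST-HSC, where 0.193% of all genes were called, and for the F test, where 0.905% were, so a count of 0 among 34 is close to the share over all genes. With the replicate number as a block, 3 of 34 members were called for MPP minus ST-HSC, against 267 of the 17576 genes. They were Csf3r, Il1r1 and Il4ra. In the reported fit, at an unadjusted p under 0.05, 9 of 34 members differed between MPP and ST-HSC, against 6.89% of all genes. For MPP and LT-HSC the count was 10 of 34 against 10.6%, for ST-HSC and LT-HSC 2 of 34 against 11.1%, and for the F test 10 of 34 against 10.5%. All 10 members with an unadjusted F test p under 0.05 were receptors, namely Il1r1, Csf3r, Il12rb2, Csf2rb, Csf2rb2, Il18r1, Il17ra, Il4ra, Il6ra and Il10rb.

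Most receptors had a higher mean signal in MPP than in ST-HSC, though none passed in the reported fit. Of 34 members 25 had a positive MPP minus ST-HSC difference, against 9082 of all 17576 genes. The members' median was 0.21, against a median of 0.01 over all genes. Among the 22 tested receptors 17 were positive, with a median of 0.28. All MPP arrays lay above all ST-HSC arrays for 14 of 34 members, against 7.75% of all genes, and below them for 1 of 34, Il1rap, against 6.43%. Those 14 were Il1r1, Csf3r, Il4ra, Il6ra, Il18r1, Il10rb, Il17ra, Csf2rb2, Il21r, Il12rb1, Il12rb2, Stat3, Stat4 and Stat6. The members were chosen with earlier results of these data known, so this is not an independent comparison with all genes. They were also brighter, at a median level of 6.76 against 5.99 over all genes tested. Against LT-HSC, all MPP arrays lay higher for 9 of 34 members, against 14.1% of genes, and lower for 2 of 34, Il15ra and Osmr, against 10.5%. Over all genes the median MPP minus LT-HSC difference was 0.06, with 10059 of 17576 positive. That of the members was 0.19, with 23 of 34 positive. Without LT-HSC replicate 1 it was 0.03, with 18 positive, and 0.01 over all genes. Without LT-HSC replicate 3 it was 0.45, with 24 positive, and 0.12 over all genes. The 22 receptors had a median of 0.20 with 14 positive, 0.15 with 16 positive without replicate 1, and 0.30 with 14 positive without replicate 3. ST-HSC arrays all lay above LT-HSC for 1 of 34 members, Il12rb2, against 13.8% of genes, and below it for 5 of 34, against 9.5%. Those 5 were Csf2rb2, Il15ra, Il21r, Il6st and Cish, and the members' median ST-HSC minus LT-HSC difference was -0.03, against 0.02 over all genes.

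**Figure D1:**
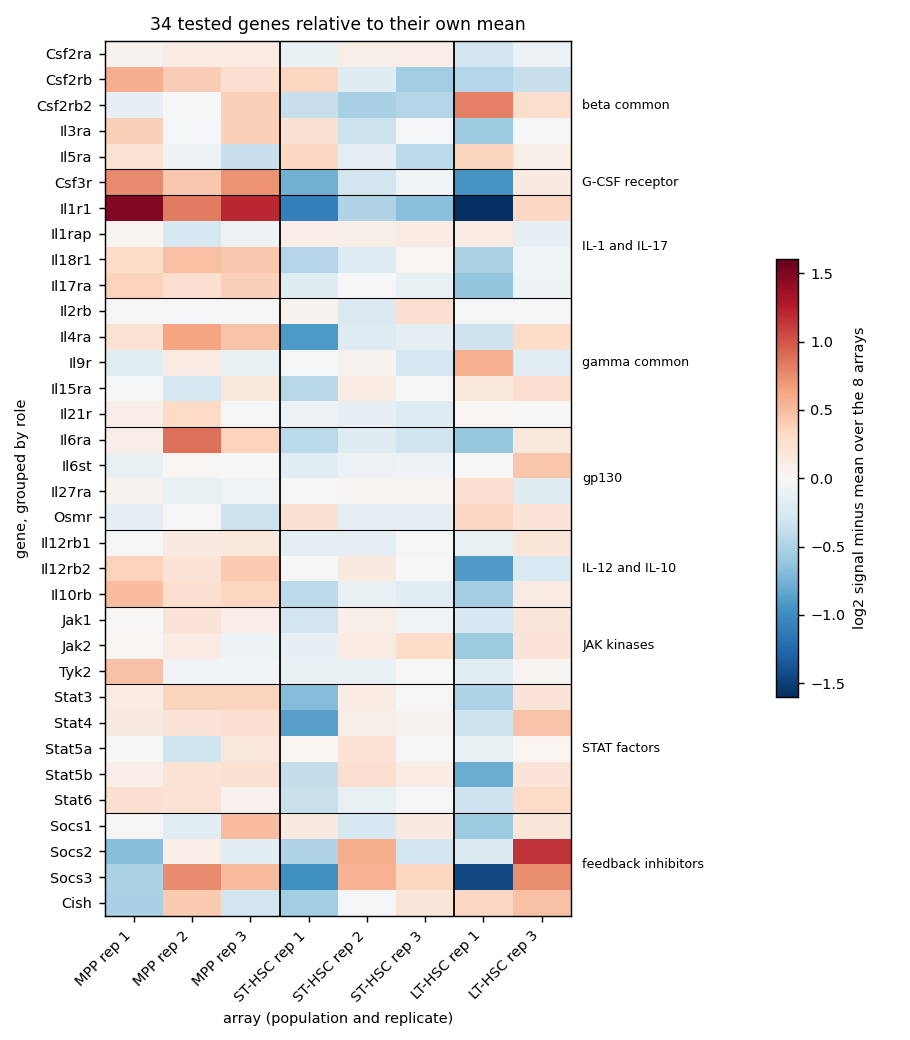
Log2 signal of the 34 tested genes minus each gene's own mean over the 8 arrays, with genes in rows by role and arrays in columns by population and replicate. Il1r1 and Csf3r are high on all MPP arrays, and the replicate 1 arrays of ST-HSC and LT-HSC are low for many of the members.

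Il1r1 encodes the signalling receptor for IL-1, and of the 34 members it had the largest MPP minus ST-HSC difference. Its signal was 8.54, 7.89 and 8.27 on the MPP arrays, 5.97, 6.58 and 6.39 on the ST-HSC arrays and 5.47 and 7.39 on the LT-HSC arrays. Every MPP array lay above every stem cell array, and the LT-HSC arrays lay on either side of ST-HSC. The MPP minus ST-HSC difference was 1.92 (SE 0.40, limma adjusted p = 0.0971), a 3.78-fold higher signal that did not pass. Over all genes, deviations of same-numbered ST-HSC and MPP arrays correlated weakly, at 0.15, 0.23 and 0.21 for replicates 1, 2 and 3. Il1r1 itself did not follow that, since replicate 1 was its highest MPP array and its lowest ST-HSC array. With the replicate number as a block the same difference passed (1.92, limma adjusted p = 0.00851). It passed as well when MPP and ST-HSC were fitted alone (limma adjusted p = 0.00798), a fit to which leaving out either LT-HSC array is equivalent here, and with all replicate 1 arrays left out (0.0192). It did not pass when any single MPP or ST-HSC array was left out, and the range over all alternatives was 0.00102 to 0.394. The MPP minus LT-HSC difference was 1.80 (SE 0.44, limma adjusted p = 0.194). That value was 0.84 when LT-HSC replicate 1 was left out and 2.76 when LT-HSC replicate 3 was, and it passed in the second case (limma adjusted p = 0.00805). ST-HSC and LT-HSC differed by -0.12, with an interval of -1.09 to 0.85 (95%, limma, for that gene alone), which leaves room for a difference either way. Il1r1 was thus low in LT-HSC replicate 1 and higher in replicate 3, the order of Flt3 and Cd34. That order was not particular to Il1r1, since the 34 tested members averaged 6.49 and 6.94 on these arrays. LT-HSC replicate 1 also had the narrowest interquartile range, 2.49. The part of cells with these markers, or of the arrays' range, in the Il1r1 values was not tested.

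Il1rap, the accessory chain that IL-1 and IL-33 receptors share, did not run with Il1r1. It read 5.80, 5.50 and 5.68 in MPP, 5.86, 5.85 and 5.87 in ST-HSC and 5.87 and 5.62 in LT-HSC. The ST-HSC arrays were within 0.01 (SD, n = 3) of each other and all above MPP, by so little that the MPP minus ST-HSC difference was -0.20 (limma adjusted p = 0.994). Il18r1 encodes the binding chain for IL-18, a cytokine of the IL-1 family. Its values were 6.44, 6.63 and 6.57 in MPP, 5.68, 5.94 and 6.18 in ST-HSC and 5.64 and 6.08 in LT-HSC. Both stem cell populations lay below every MPP array, with differences of 0.62 (SE 0.18, limma adjusted p = 0.301) against ST-HSC and 0.69 (SE 0.21, limma adjusted p = 0.282) against LT-HSC. Il17ra, the common chain for IL-17 cytokines, had the same arrangement, at 8.84, 8.74 and 8.85 in MPP, 8.28, 8.47 and 8.35 in ST-HSC and 7.85 and 8.39 in LT-HSC. Its MPP minus ST-HSC difference was 0.45 (SE 0.17, limma adjusted p = 0.559), and its MPP minus LT-HSC difference of 0.69 (SE 0.19, limma adjusted p = 0.244) passed without LT-HSC replicate 3 (0.96, limma adjusted p = 0.0357), the lowest p among its alternatives, which reached 0.976.

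Csf3r encodes the receptor for G-CSF, the cytokine that drives neutrophil production and is used to mobilise stem cells. It was 8.51, 8.18 and 8.47 in MPP, 6.98, 7.46 and 7.68 in ST-HSC and 6.81 and 7.89 in LT-HSC, so that all MPP arrays exceeded all others. The MPP minus ST-HSC difference was 1.01 (SE 0.27, limma adjusted p = 0.231), about as large as the MPP minus LT-HSC difference of 1.04 (SE 0.30, limma adjusted p = 0.276). With the replicate number as a block the MPP minus ST-HSC difference passed (limma adjusted p = 0.0265), and the range over all alternatives was 0.00909 to 0.776. For MPP minus LT-HSC it passed without LT-HSC replicate 3 (1.58, limma adjusted p = 0.0311) and was 0.50 without LT-HSC replicate 1. Mature neutrophils also carry this receptor. The granulocyte and monocyte list averaged 8.13, 6.99 and 7.18 in MPP, 8.71, 7.04 and 6.72 in ST-HSC and 8.31 and 6.33 in LT-HSC. Replicate 1 was the highest array of every population for that list, and for Csf3r it was the highest in MPP and the lowest in ST-HSC and LT-HSC. The part of such cells in the Csf3r values was not tested.

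The beta common family comprises the receptors for IL-3, GM-CSF and IL-5, each an alpha chain that pairs with the shared beta chain. Csf2rb encodes that shared chain and Csf2rb2 a closely related second copy, found in mouse, that serves IL-3 alone. The 2 copies are near-identical, so probes may read both and their separate values are uncertain. Csf2rb2 was 5.22, 5.36 and 5.74 in MPP, 4.99, 4.84 and 4.89 in ST-HSC and 6.16 and 5.63 in LT-HSC. ST-HSC lay below both other populations without overlap, and MPP and LT-HSC overlapped. The ST-HSC minus LT-HSC difference of -0.99 (SE 0.21, limma adjusted p = 0.0682) had the smallest adjusted p of any member in any comparison. It passed with the replicate number as a block in ST-HSC and LT-HSC alone (-0.95, limma adjusted p = 0.00159). That fit was added after seeing the data and called 1128 genes, against 164 in the reported fit. ST-HSC replicate 2 has no LT-HSC partner there, so the p-value rests on 2 pairs of arrays. In all, the difference passed in 4 of 19 alternatives. The rest were the block over all 8 arrays (-0.95, limma adjusted p = 0.042) and a mean-dependent, robust prior (-0.99, limma adjusted p = 0.0435). The last was without LT-HSC replicate 3 (-1.25), which left 1 LT-HSC array. The highest adjusted p was 0.436, without LT-HSC replicate 1. Csf2rb showed no such low point, at 6.87, 6.69 and 6.56 in MPP, 6.64, 6.10 and 5.74 in ST-HSC and 5.83 and 5.93 in LT-HSC. Its MPP minus LT-HSC difference was 0.83 (SE 0.24, limma adjusted p = 0.276) and its MPP minus ST-HSC difference 0.55 (SE 0.22, limma adjusted p = 0.603).

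Among the alpha chains, Il3ra for IL-3 read 7.11, 6.71 and 7.11 in MPP, 6.97, 6.38 and 6.69 in ST-HSC and 6.16 and 6.69 in LT-HSC. MPP and ST-HSC overlapped, and MPP exceeded LT-HSC by 0.55 (SE 0.24, limma adjusted p = 0.458). Csf2ra for GM-CSF was 6.80, 6.87 and 6.88 in MPP, 6.64, 6.84 and 6.85 in ST-HSC and 6.46 and 6.65 in LT-HSC. Its spread within MPP was only 0.05 (SD, n = 3), yet the largest of its 3 differences was 0.29, for MPP minus LT-HSC (limma adjusted p = 0.535). Il5ra for IL-5, a receptor of eosinophils and some B cells, was 4.32, 4.01 and 3.73 in MPP, 4.43, 3.95 and 3.68 in ST-HSC and 4.45 and 4.19 in LT-HSC. These values lay near the dim limit, and Il5ra was the only tested member highest on the replicate 1 array of all 3 populations, 1 of 34 against 4.89% of all genes. The list of mast cell, basophil and eosinophil markers, 9 matched of which Gzmb and Cma1 lay below the dim limit, averaged 6.28 to 6.67 in MPP, 6.27 to 6.85 in ST-HSC and 6.25 and 6.35 in LT-HSC, with the replicate 1 array highest in MPP and ST-HSC but not in LT-HSC.

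**Figure D2:**
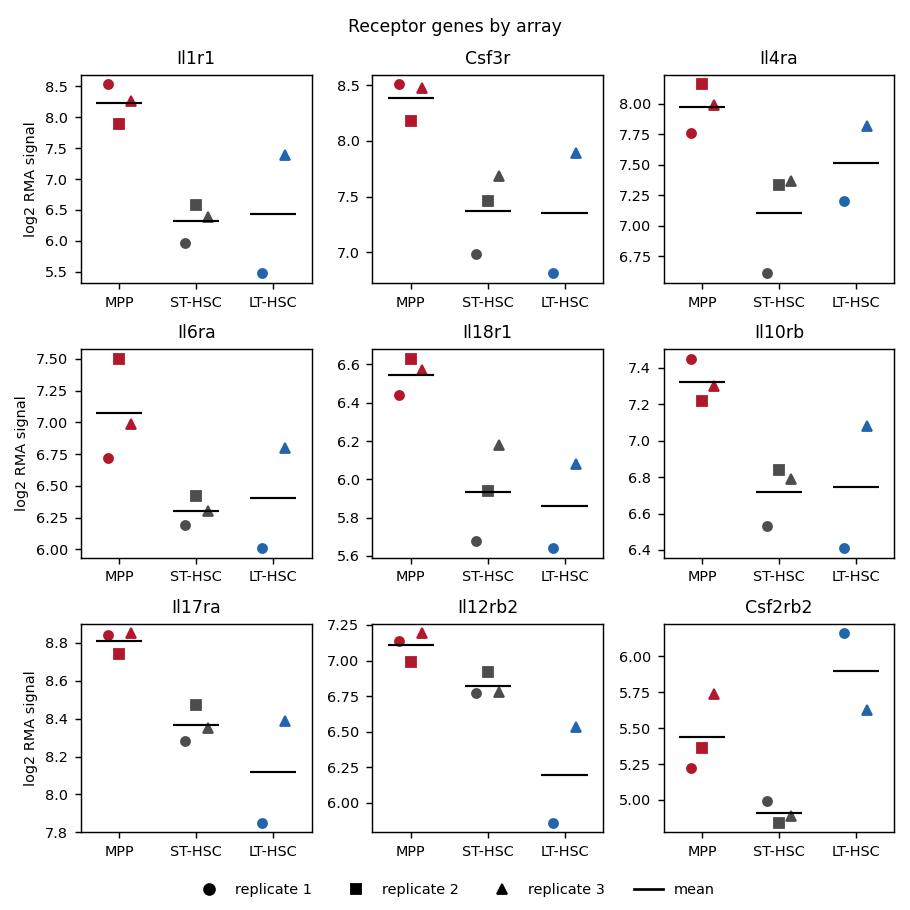
Log2 RMA signal of 9 receptor genes on each array, with 1 point per array, marker shape for the replicate number and a line at the population mean. The 9 genes were taken from the 14 members whose MPP arrays all lay above ST-HSC, so every panel has that order. Csf2rb2 has its lowest values in ST-HSC.

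Receptors of the gamma common family serve IL-2, IL-4, IL-9, IL-15 and IL-21, cytokines best known from lymphocytes. Il4ra, the chain shared by IL-4 and IL-13 receptors, was 7.76, 8.16 and 7.99 in MPP, 6.61, 7.33 and 7.37 in ST-HSC and 7.20 and 7.82 in LT-HSC. MPP lay above ST-HSC without overlap and overlapped with LT-HSC. The MPP minus ST-HSC difference was 0.87 (SE 0.24, limma adjusted p = 0.239), and it passed with the replicate number as a block (0.87, limma adjusted p = 0.0215), within a range of 0.0215 to 0.78. Il15ra, which presents IL-15 to neighbouring cells, was 7.27, 7.01 and 7.46 in MPP, 6.85, 7.41 and 7.31 in ST-HSC and 7.48 and 7.57 in LT-HSC. Both LT-HSC arrays were the highest, with differences of -0.27 for MPP (limma adjusted p = 0.623) and -0.33 for ST-HSC (limma adjusted p = 0.6) against LT-HSC. Il21r, the IL-21 receptor, averaged 6.20 ± 0.18 in MPP, 5.92 ± 0.06 in ST-HSC (SD, n = 3 each) and 6.09 ± 0.01 in LT-HSC (SD, n = 2). ST-HSC arrays were the lowest, with an MPP minus ST-HSC difference of 0.28 (limma adjusted p = 0.867).

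Il9r, the IL-9 receptor, was 5.53, 5.83 and 5.58 in MPP, 5.67, 5.75 and 5.42 in ST-HSC and 6.27 and 5.53 in LT-HSC, where replicate 1 alone stood out. Il2rb, which transmits IL-2 and IL-15 signals, was near the dim limit on every array, at 4.06 to 4.11 in MPP, 3.86 to 4.36 in ST-HSC and 4.06 on both LT-HSC arrays. Il2ra, the high-affinity IL-2 chain CD25, was not tested, at 3.86, 3.74 and 3.67 in MPP, 3.90, 3.60 and 3.54 in ST-HSC and 4.22 and 4.34 in LT-HSC. Both LT-HSC arrays exceeded the others, at levels where the arrays carry little signal. T, NK and innate lymphoid cells use most of these chains, and 12 of their 13 listed markers were matched, with Cd3e, Cd3g and Cd2 below the dim limit. That list averaged 4.89 to 4.97 in MPP, 4.89 to 5.07 in ST-HSC and 4.94 and 4.99 in LT-HSC, nearly level across arrays. Single genes in it were not all level. Nkg7, the brightest, had means of 9.49 in MPP, 9.34 in ST-HSC and 8.47 in LT-HSC. Klrb1c went the other way, at 4.62, 4.66 and 5.15.

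The gp130 family uses the shared chain encoded by Il6st. Il6st itself was 7.42, 7.57 and 7.55 in MPP, 7.36, 7.45 and 7.46 in ST-HSC and 7.54 and 7.99 in LT-HSC. It was highest in LT-HSC, with MPP overlapping, and the ST-HSC minus LT-HSC difference was -0.35 (SE 0.18, limma adjusted p = 0.515). Il6ra, the IL-6 binding chain that pairs with it, had the opposite emphasis, at 6.72, 7.50 and 6.99 in MPP, 6.19, 6.42 and 6.30 in ST-HSC and 6.01 and 6.80 in LT-HSC. The MPP arrays exceeded all ST-HSC arrays, by 0.76 on average (SE 0.24, limma adjusted p = 0.362), and the MPP minus LT-HSC difference was 0.67 (SE 0.27, limma adjusted p = 0.432). Osmr, the oncostatin M chain, was dim, at 3.95, 4.10 and 3.77 in MPP, 4.34, 3.95 and 3.94 in ST-HSC and 4.43 and 4.31 in LT-HSC. MPP lay below LT-HSC without overlap, by -0.43 (SE 0.19, limma adjusted p = 0.468). Il27ra, the IL-27 chain, averaged 6.24 ± 0.09 in MPP, 6.30 ± 0.04 in ST-HSC (SD, n = 3 each) and 6.31 ± 0.32 in LT-HSC (SD, n = 2), with no difference beyond 0.07.

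Lifr, the LIF receptor, and Lepr, the leptin receptor that marks marrow stroma, were below the dim limit. Lifr was 3.75, 3.60 and 3.74 in MPP, 4.04, 3.40 and 3.37 in ST-HSC and 3.71 and 3.55 in LT-HSC. Lepr was 3.34, 3.30 and 3.28 in MPP, 4.43, 3.34 and 3.29 in ST-HSC and 3.50 and 3.41 in LT-HSC, so 1 array, ST-HSC replicate 1, stood above the rest. The stroma and endothelium list held 12 genes, of which Lepr and Pdgfra lay below the dim limit. It averaged 5.10 to 5.59 in MPP, 5.05 to 6.67 in ST-HSC, and 5.64 and 5.04 in LT-HSC replicates 1 and 3. Replicate 1 was the highest array of each population for that list. The part of such cells in the Lepr value was not tested.

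Il12rb2, the signalling chain of the IL-12 receptor, ran in the order MPP, ST-HSC, LT-HSC with no overlap between any 2 populations. It was 7.14, 6.99 and 7.19 in MPP, 6.77, 6.92 and 6.78 in ST-HSC and 5.86 and 6.53 in LT-HSC. MPP exceeded LT-HSC by 0.91 (SE 0.21, limma adjusted p = 0.17), ST-HSC exceeded LT-HSC by 0.63 (SE 0.21, limma adjusted p = 0.282) and MPP exceeded ST-HSC by 0.28 (SE 0.19, limma adjusted p = 0.957). Without LT-HSC replicate 3 both differences from LT-HSC passed, at 1.25 for MPP and 0.97 for ST-HSC (limma adjusted p = 0.0195 and 0.0288). They were 0.57 and 0.29 when LT-HSC replicate 1 was left out instead. Il12rb1, its partner chain, averaged 5.37 ± 0.10 in MPP, 5.17 ± 0.07 in ST-HSC (SD, n = 3 each) and 5.32 ± 0.23 in LT-HSC (SD, n = 2). That pattern was not the one of Il12rb2, since ST-HSC was lowest. Il10rb, the shared second chain of IL-10 and IL-22 receptors, was 7.45, 7.22 and 7.30 in MPP, 6.53, 6.84 and 6.79 in ST-HSC and 6.41 and 7.08 in LT-HSC. MPP exceeded both stem cell populations, by 0.60 against ST-HSC (SE 0.19, limma adjusted p = 0.374) and 0.58 against LT-HSC (SE 0.22, limma adjusted p = 0.404). The difference from LT-HSC passed without LT-HSC replicate 3 (0.91, limma adjusted p = 0.0489).

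**Figure D3:**
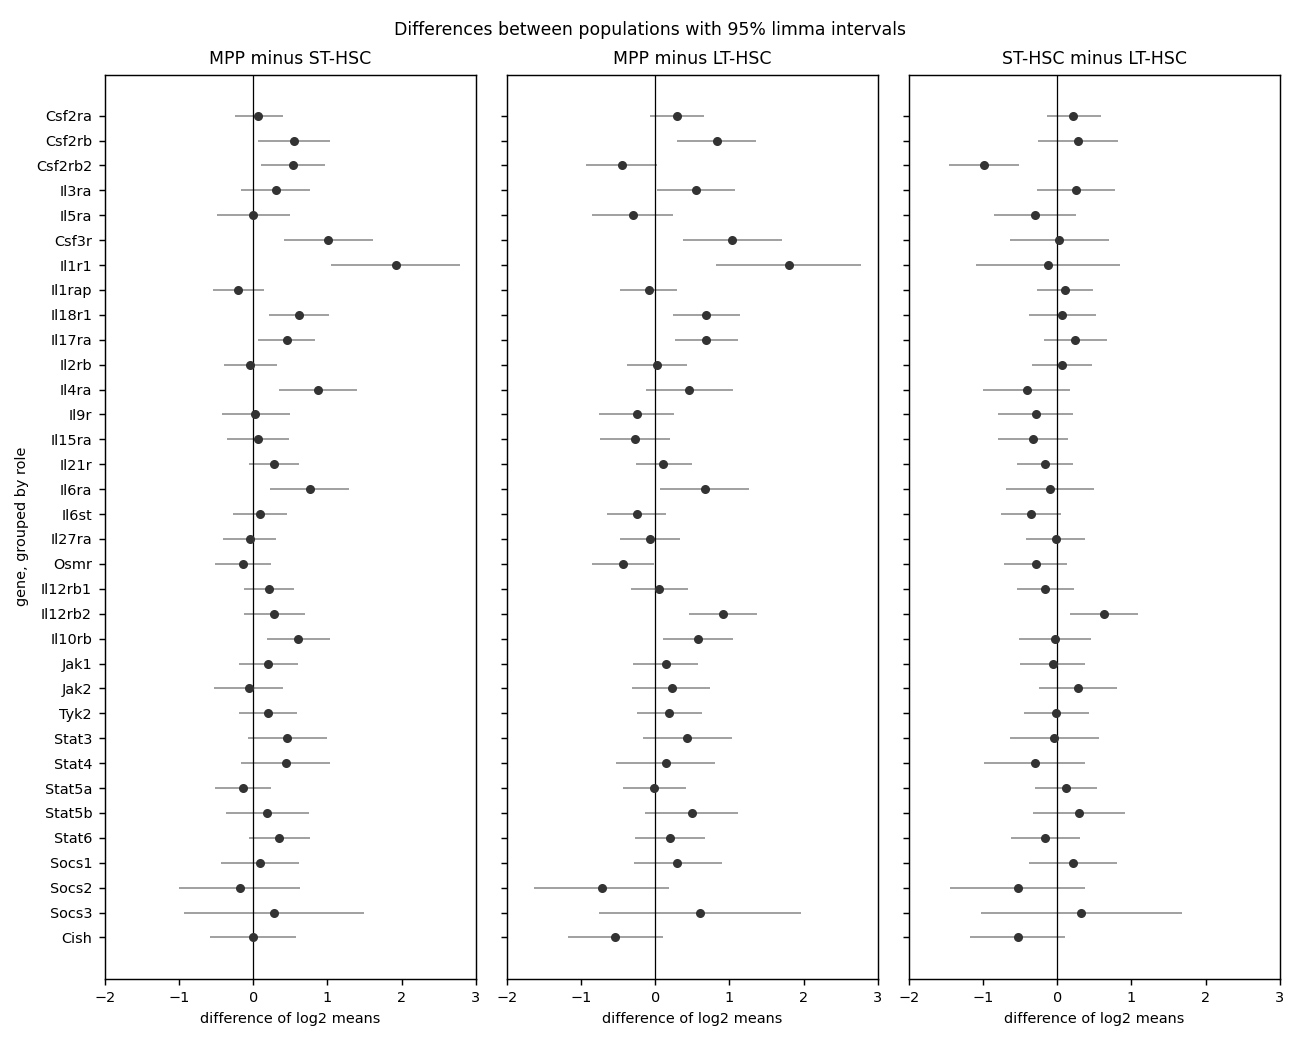
Differences of log2 means for the 34 tested genes in each pairwise comparison, with genes in rows by role and bars for the 95% interval from limma of each gene alone, not adjusted for the number of genes. Il1r1 and Csf3r lie farthest right for MPP minus ST-HSC, and Csf2rb2 farthest left for ST-HSC minus LT-HSC.

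Each of the 3 tested JAK kinases overlapped between all populations. Jak1, used by gp130, gamma common and interferon receptors, was 9.58, 9.77 and 9.67 in MPP, 9.25, 9.65 and 9.51 in ST-HSC and 9.30 and 9.76 in LT-HSC. MPP exceeded ST-HSC by 0.20, with a 95% interval of -0.19 to 0.60, and the interval of ST-HSC against LT-HSC ran from -0.50 to 0.38 around -0.06. Jak2, the kinase of the thrombopoietin, erythropoietin and beta common receptors, was 8.18, 8.28 and 8.06 in MPP, 8.01, 8.27 and 8.44 in ST-HSC and 7.57 and 8.35 in LT-HSC. Its MPP minus LT-HSC interval ran from -0.31 to 0.74. Tyk2, which serves interferon and IL-12 receptors, was 6.99, 6.46 and 6.48 in MPP, 6.40, 6.41 and 6.52 in ST-HSC and 6.35 and 6.56 in LT-HSC, with MPP replicate 1 alone high. Over the 3 comparisons, the intervals for these kinases leave room for differences of up to 0.80 on the log2 scale (Jak2, ST-HSC against LT-HSC).

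Of the STAT factors, Stat3, the main factor of gp130 and G-CSF receptors, was 8.69, 8.93 and 8.93 in MPP, 7.88, 8.69 and 8.59 in ST-HSC and 8.08 and 8.77 in LT-HSC. MPP exceeded ST-HSC without overlap, by 0.46 (SE 0.24, limma adjusted p = 0.846), and ST-HSC replicate 1 was the lowest array. Stat4, which acts below IL-12 receptors, was 9.20, 9.27 and 9.31 in MPP, 8.19, 9.15 and 9.11 in ST-HSC and 8.73 and 9.51 in LT-HSC. ST-HSC replicate 1 was again the lowest array, and the MPP minus ST-HSC difference was 0.44 (SE 0.27, limma adjusted p = 0.924). Stat6, the factor of IL-4, was 7.67, 7.65 and 7.48 in MPP, 7.06, 7.30 and 7.38 in ST-HSC and 7.08 and 7.72 in LT-HSC. It lay 0.35 higher in MPP than in ST-HSC (SE 0.19, limma adjusted p = 0.855). The paralogs Stat5a and Stat5b, the factors of thrombopoietin and IL-3, share long stretches of sequence and were read by separate probe sets. Stat5a averaged 7.40 ± 0.24 in MPP, 7.53 ± 0.14 in ST-HSC (SD, n = 3 each) and 7.41 ± 0.10 in LT-HSC (SD, n = 2), with differences between -0.14 and 0.12. Stat5b was 7.94, 8.05 and 8.07 in MPP, 7.45, 8.09 and 7.95 in ST-HSC and 7.03 and 8.04 in LT-HSC, where both replicate 1 stem cell arrays were low. Its MPP minus LT-HSC difference of 0.49 (SE 0.28, limma adjusted p = 0.543) was -0.02 without LT-HSC replicate 1.

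None of the 4 feedback inhibitors passed in the reported fit, and Socs3 and Socs2 spread widely between replicates. Socs3, which blocks gp130 and G-CSF receptors, was 6.60, 7.87 and 7.62 in MPP, 6.13, 7.67 and 7.45 in ST-HSC and 5.67 and 7.85 in LT-HSC. Its spread within populations was 0.97 on the log2 scale, the largest of the 34 members, whose median was 0.24, as against 0.23 over all genes tested. The replicate 1 array was the lowest in each population, and a second Socs3 probe set repeated this, at 5.78, 6.41 and 6.27 in MPP, 5.51, 6.33 and 5.80 in ST-HSC and 5.55 and 5.93 in LT-HSC. Cish, a target of STAT5 that binds cytokine receptors, was 8.06, 9.0 and 8.27 in MPP, 8.02, 8.56 and 8.77 in ST-HSC and 8.91 and 9.05 in LT-HSC. Both LT-HSC arrays exceeded all ST-HSC arrays, but MPP replicate 2 lay between them. The difference from LT-HSC was -0.54 in MPP (SE 0.29, limma adjusted p = 0.526) and -0.53 in ST-HSC (SE 0.29, limma adjusted p = 0.532). Its second probe set gave -0.25 in MPP and -0.37 in ST-HSC.

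Socs2, which limits growth hormone and STAT5 signals, was 5.38, 6.18 and 5.90 in MPP, 5.59, 6.66 and 5.76 in ST-HSC and 5.85 and 7.22 in LT-HSC. The MPP minus LT-HSC difference was -0.72 (SE 0.41, limma adjusted p = 0.542). Over all alternatives it ran from -1.40 to -0.03, the latter without LT-HSC replicate 3. With the replicate number as a block it was -0.97 (limma adjusted p = 0.0922), and a second probe set gave -0.58. Socs1, the inhibitor of interferon signalling, was 5.64, 5.45 and 6.11 in MPP, 5.77, 5.37 and 5.77 in ST-HSC and 5.04 and 5.82 in LT-HSC, with all populations overlapping. The low replicate 1 values reached beyond the inhibitors. Replicate 1 was the lowest array of every population for 13 of 34 members, against 10.6% of all genes: Socs2, Socs3, Cish, Stat3, Stat4, Stat5b, Jak1, Il6st, Il6ra, Il4ra, Il18r1, Il12rb1 and Csf2ra. The granulocyte and monocyte markers were highest on the same arrays, and the range of signals was narrowest on those of LT-HSC and ST-HSC but, at 3.05, not on that of MPP. The part of other cells and of the arrays' range in these values was not tested.

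**Figure D4:**
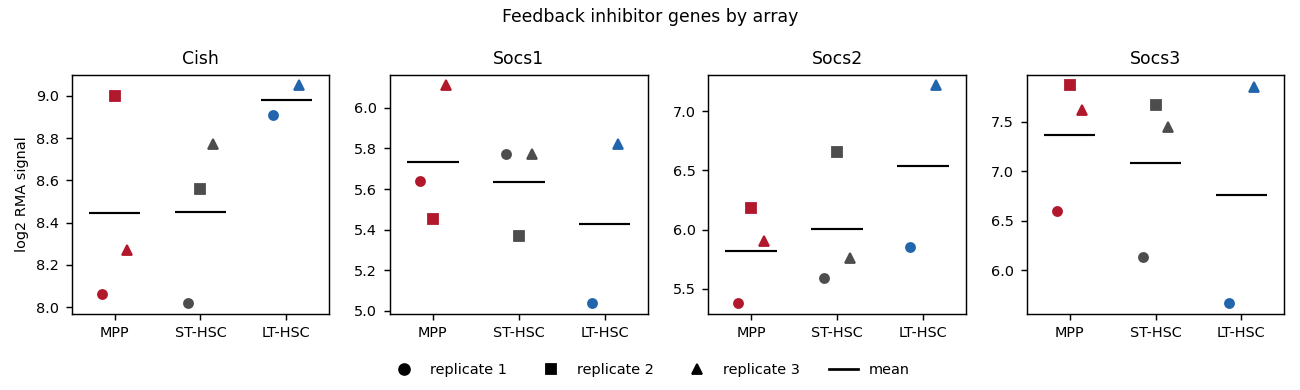
Log2 RMA signal of the 4 feedback inhibitor genes on each array, with 1 point per array, marker shape for the replicate number and a line at the population mean. Replicate 1 (circles) is the lowest array of every population for Cish, Socs2 and Socs3 but not for Socs1.

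STAT dimers bind a palindrome with the letters TTCNNNGAA, and the member promoters that hold these letters are shown so that feedback genes and receptors can be set side by side. The windows come from RefSeq on GRCm38.p6 and run from 250 bases before to 50 after each annotated start, and 33 of the 40 listed genes had at least 1, with 44 windows in all. The motif reads the same on both strands. It was found in 5 of the 44 windows, those of Cish, Socs3, Csf2rb2, Il12rb2 and Il18r1, and in 8.3% of all 32851 windows. The windows of Il1r1 and Csf3r, the members with the largest MPP minus ST-HSC differences, did not hold these letters. A match is a description of the sequence and was not tested for binding. The windows with a match are printed 5′ to 3′ on the strand of the gene, with the motif in capitals. They lie at chr9:107296409-107296708 (plus strand) for Cish, chr11:117969317-117969616 (minus) for Socs3, chr15:78305672-78305971 (minus) for Csf2rb2, chr6:67376139-67376438 (minus) for Il12rb2 and chr1:40465756-40466055 (plus) for the third of 3 Il18r1 windows.
Cish: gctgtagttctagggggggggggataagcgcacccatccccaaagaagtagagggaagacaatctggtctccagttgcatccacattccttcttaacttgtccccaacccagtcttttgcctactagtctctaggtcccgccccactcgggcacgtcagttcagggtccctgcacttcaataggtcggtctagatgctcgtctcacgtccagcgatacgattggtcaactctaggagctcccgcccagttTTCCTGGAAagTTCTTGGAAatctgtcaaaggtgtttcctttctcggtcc
Socs3: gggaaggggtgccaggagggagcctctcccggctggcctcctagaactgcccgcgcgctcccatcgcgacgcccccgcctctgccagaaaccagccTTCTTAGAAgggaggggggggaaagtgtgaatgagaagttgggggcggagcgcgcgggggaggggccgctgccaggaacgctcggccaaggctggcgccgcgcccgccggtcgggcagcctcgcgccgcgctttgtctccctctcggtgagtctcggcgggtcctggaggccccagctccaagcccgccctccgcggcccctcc
Csf2rb2: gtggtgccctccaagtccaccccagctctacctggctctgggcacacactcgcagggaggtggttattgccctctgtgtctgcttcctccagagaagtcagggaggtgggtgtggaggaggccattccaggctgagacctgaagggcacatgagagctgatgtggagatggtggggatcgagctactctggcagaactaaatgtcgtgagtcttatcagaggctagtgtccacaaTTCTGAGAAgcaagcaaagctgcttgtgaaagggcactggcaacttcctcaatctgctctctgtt
Il12rb2: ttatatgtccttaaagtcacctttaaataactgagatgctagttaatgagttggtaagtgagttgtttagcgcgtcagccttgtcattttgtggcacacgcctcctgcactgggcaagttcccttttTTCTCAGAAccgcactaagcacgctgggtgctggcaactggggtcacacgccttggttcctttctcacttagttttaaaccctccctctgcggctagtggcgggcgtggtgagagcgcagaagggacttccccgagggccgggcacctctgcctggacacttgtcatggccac
Il18r1: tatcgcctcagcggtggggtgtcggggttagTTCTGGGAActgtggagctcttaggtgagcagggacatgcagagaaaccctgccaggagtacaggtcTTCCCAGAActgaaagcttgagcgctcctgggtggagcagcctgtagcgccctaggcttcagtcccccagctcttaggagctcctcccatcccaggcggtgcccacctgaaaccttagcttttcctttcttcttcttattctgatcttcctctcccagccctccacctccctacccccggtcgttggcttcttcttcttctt

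Cish and Il18r1 held 2 matches each and the other 3 windows 1 each. The Cish matches began at bases 1 and 12 from the start of transcription, counted downstream from 1, and those of Csf2rb2, Il12rb2 and Socs3 at -15, -123 and -154. Their differences between MPP and LT-HSC had no common sign, at 0.91 for Il12rb2, 0.69 for Il18r1, -0.54 for Cish, -0.45 for Csf2rb2 and 0.60 for Socs3, and none passed. Both strands were also searched for other factors' letters: the RUNX letters TGTGGT stood in 7 of the 44 windows and 16.8% of all, and the GATA letters AGATAA in 5 of the 44 and 11.2% of all.

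Beyond the members, 104 of 115 other listed genes of the pathway were matched and 95 tested. Of the 95, 1 was called for MPP minus ST-HSC, 0 in the other pairwise comparisons and 3 by the F test (3.16%, against 0.905% of all genes). The gene called for MPP minus ST-HSC was Il10ra, which encodes the binding chain for IL-10 and partners with Il10rb. Il10ra was 6.50, 6.58 and 6.58 in MPP, 5.12, 4.82 and 4.52 in ST-HSC and 4.91 and 5.70 in LT-HSC, with every MPP array above all others. It rose by 1.74 in MPP against ST-HSC (limma adjusted p = 0.0141) and stayed between 1.59 and 1.91 in all 19 alternatives, of which 14 called it. The call was lost with median centring and when ST-HSC replicate 2, ST-HSC replicate 3, MPP replicate 2 or MPP replicate 3 was left out, with adjusted p up to 0.109. By the F test Il10ra had a limma adjusted p of 0.012, and it was called in 15 of 17 alternatives. The other 2 genes called by the F test were Il18rap and Ghr, neither of them called in a pairwise comparison. Il18rap, the second chain of the IL-18 receptor, was 7.63, 7.52 and 7.48 in MPP, 5.95, 6.53 and 6.64 in ST-HSC and 5.75 and 6.53 in LT-HSC. Every MPP array lay above all others, with a limma adjusted F test p of 0.0407 that passed in 8 of 17 alternatives and reached 0.175. Ghr, the growth hormone receptor, was 4.48, 4.82 and 4.76 in MPP, 5.52, 5.36 and 5.32 in ST-HSC and 5.58 and 5.99 in LT-HSC. Every MPP array lay below all others, with a limma adjusted F test p of 0.0436 that passed in 6 of 17 alternatives and reached 0.174. Leaving out any single MPP array, LT-HSC replicate 1, ST-HSC replicate 2 or ST-HSC replicate 3 ended the F test call of both Il18rap and Ghr, and leaving out ST-HSC replicate 1 ended that of Ghr. For Il10ra the F test call was lost without ST-HSC replicate 3 and without MPP replicate 3. Among 23 other tested receptors, 16 had a positive MPP minus ST-HSC difference, with a median of 0.12. The 2 brightest were Kit, the stem cell factor receptor, with a difference of 0.15 (limma adjusted p = 0.999), and Ifnar2, a chain of the type I interferon receptor, with 0.54 (limma adjusted p = 0.573). Of 23 ligand genes 12 were positive and 11 negative, with a median of 0.02. Of 23 STAT target genes 15 were positive and 8 negative, with a median of 0.17, and 0 were called. Mcl1, a survival gene of the BCL2 family, differed by 0.43 (limma adjusted p = 0.752) and Ccnd2, a D-type cyclin, by 0.05 (limma adjusted p = 0.999). Of 18 other negative regulators 15 were positive for MPP minus ST-HSC and 17 for MPP minus LT-HSC, with medians of 0.21 and 0.30, and 0 were called. Ptprc, which encodes the phosphatase CD45, differed by 0.29 (limma adjusted p = 0.993) and Ptpn6, which encodes SHP-1, by 0.22 (limma adjusted p = 0.994) between MPP and ST-HSC. Of 8 adaptors and kinases 5 were positive, with Pik3r1, a regulatory subunit of PI3-kinase, at 0.24 (limma adjusted p = 0.932) and the adaptor Grb2 at -0.01 (limma adjusted p = 0.999).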

How the data were processed

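Single-colour arrays of 8 sorted samples were used. Per the submitters' processing notes, the deposited log2 values were made by the authors with RMA (version not stated). No source names the log base, which was inferred from the range of values. The table held 33649 probe sets, of which 23521 had 1 gene symbol, 1814 several and 8314 none in the platform annotation. A gene was represented by its single-symbol probe set with the highest mean, and 17576 genes at or above the 25th percentile (3.88) were tested. One limma 3.58.1 model (R 4.3.3) over all 8 arrays gave the 3 contrasts and the F test, with 5 residual and 5.93 prior degrees of freedom and Benjamini-Hochberg adjustment over all genes. The model was checked on simulated data. The number of arrays limits the precision.

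The members, lists and tests were chosen with earlier results of these data known. All 40 members are named, those with the smallest F test p on every array. Deviations of same-numbered MPP and ST-HSC arrays from their population means correlated at 0.15, 0.23 and 0.21 over genes for replicates 1, 2 and 3. Same-numbered arrays were paired only in the alternative fits with a block, and the reported fit had no pairing. The pairing comes from this check and not from the labels. For LT-HSC replicates 1 and 3 the correlations were 0.54 and 0.47 with ST-HSC and -0.16 and 0.10 with MPP. Block fits for the LT-HSC comparisons paired it by number too, though only 2 numbers are shared.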

Additional observations from a re-analysis of the deposited data

How the results depend on the processing

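A member difference counts as turned only where it was at least its SE in the reported fit or was called in the alternative. Of 1944 recomputed member differences, 126 changed sign at all, 22 did so by that rule and 32 passed the threshold only in the alternative. The cause was not tested for any of them. The alternatives for Il10ra, Il18rap and Ghr were run after seeing the data.

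Genes called for MPP minus LT-HSC numbered 22, and 37 with quantile normalization, 5 with median centring, 9 with array weights, 157 with the replicate block, 14 with all replicate 1 arrays left out, and 266 in the block fit of the 2 populations alone, which was added after seeing the data. Leaving out 1 array gave 6 to 615. For ST-HSC minus LT-HSC the count of 164 became 104 with median centring, 61 with array weights, 473 with the replicate block, 0 without LT-HSC replicate 1 and ST-HSC replicate 1 together, the arrays that stood apart (a lone LT-HSC array is assumed to vary like the other groups), 70 without all replicate 1 arrays, 100 with only those 2 populations and 1128 with the block added to that. Leaving out 1 array gave 17 to 825. For MPP minus ST-HSC the 34 became 1 with median centring, 525 with array weights, 267 with the replicate block, 78 without both arrays that stood apart, 104 without all replicate 1 arrays, 71 with only those 2 populations and 289 with the block added, and 1 to 71 without 1 array. The F test's 159 became 65 with median centring, 386 with array weights, 566 with the replicate block and 88 without both arrays that stood apart, and 29 to 520 without 1 array.

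Members called for MPP minus LT-HSC numbered 1 with the replicate block (Il1r1), 2 with the block in the 2 populations alone (Csf3r and Il1r1) and 0 to 5 without 1 array. For ST-HSC minus LT-HSC there was 1 with a mean-dependent, robust prior and 1 with the replicate block (both Csf2rb2), 2 with the block in the 2 populations alone (Csf2rb2 and Socs2) and 0 to 2 without 1 array. For MPP minus ST-HSC there were 7 with array weights (Csf2rb2, Csf3r, Il1r1, Il18r1, Il4ra, Il6ra and Il10rb) and 3 with the replicate block in either form (Csf3r, Il1r1 and Il4ra). Il1r1 was the 1 member called without both arrays that stood apart, without all replicate 1 arrays and with only those 2 populations, and 0 to 1 were called without 1 array. By the F test there were 3 with array weights, 3 with the replicate block, 1 without both arrays that stood apart, 1 without all replicate 1 arrays and 0 to 5 without 1 array. Median centring shifted the median difference over all genes to 0.18 for MPP minus LT-HSC and 0.13 for ST-HSC minus LT-HSC, from which the members' medians were 0.32 and 0.08. For MPP minus ST-HSC, 25 members were positive as deposited, 26 with quantile normalization and 27 with median centring.

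Turned differences, none of them called, were those of ST-HSC minus LT-HSC for Csf2rb (-0.01 without both arrays that stood apart and without all replicate 1 arrays, 0.04 to 0.49 without 1 array), Il3ra (-0.16 in both, -0.01 to 0.52), Il9r (0.06 in both, -0.66 to 0.09), Stat5b (-0.02 in both, -0.21 to 0.80), Il17ra (-0.02 to 0.51), Jak2 (-0.11 to 0.67) and Socs2 (-1.22 to 0.15). For MPP minus LT-HSC they were Il9r (0.12 and 0.18, -0.63 to 0.12), Stat5b (-0.02 without both arrays that stood apart, -0.02 to 0.99) and Socs1 (-0.09 and -0.04, -0.09 to 0.69). No MPP minus ST-HSC difference turned by that rule.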
